A study of Mus musculus with 16 samples.

Results

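The genes described here handle iron, or decide how far iron can drive the peroxidation of membrane lipids. They were chosen by gene symbol: Tfrc, Slc11a2 and Slc40a1 for iron transport, Fth1, Ftl1 and Ncoa4 for iron storage, Hmox1 for heme breakdown, and Gpx4, Slc7a11 and Acsl4 for ferroptosis. All 10 were found among the 21923 genes measured. They were followed in poly(A) RNA from the gastrocnemius, a muscle of the calf, of 16 adult mice, with 4 mice in each group and 1 library per mouse. NOR mice were healthy controls, injected with PBS and no tumor cells. In CAC mice a tumor grew under the skin, with PBS given daily from day 9. AM mice bore the same tumors, and amiloride, a diuretic that the study used to lower exosome release, was given daily at 2 mg/kg from day 9. KD mice carried tumors grown from cells in which Rab27 had been knocked down by lentiviral shRNA, so that the knock-down was in the tumor cells and not in the muscle. All mice were killed on day 30 after inoculation. In every group replicates 1 and 2 were labelled C57BL/6, which hosted the lung carcinoma line LLC, whereas 3 and 4 were labelled BABL/c, which hosted the colon carcinoma line CT26, so strain and tumor line cannot be told apart. The C57BL/6 mice were male, the BABL/c mice were male or female by the labels' protocol and male by the study's methods, and the sex of each mouse is not given in the labels.

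Cells take up iron bound to transferrin through the transferrin receptor TFRC, release it from endosomes through DMT1 (Slc11a2), store it in ferritin shells built of heavy (Fth1) and light (Ftl1) chains, and export it through ferroportin (Slc40a1). Iron regulatory proteins bind a hairpin called the iron-responsive element (IRE) when iron is scarce. Bound in a 5′ UTR it blocks translation, as in ferritin mRNA, and bound in the 3′ UTR of Tfrc it protects the mRNA from decay. Ferroptosis is a form of cell death driven by iron-dependent lipid peroxidation. GPX4 reduces the lipid peroxides with glutathione, whose cystine enters through SLC7A11, while ACSL4 loads membranes with the polyunsaturated lipids that are peroxidized. Skeletal muscle holds much iron in myoglobin and in mitochondria.

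The IREs are shown first because they mark which of the 10 mRNAs carry the iron-regulated hairpin. They were searched in the annotated transcripts as a C, 5 bases, the loop CAGTGN, and 5 bases that pair with the first 5 (with G to T pairs allowed and at most 1 mismatch). Capitals mark the bulged C and the loop. Sequences are from GRCm38 with the GENCODE M21 annotation, written 5′ to 3′ on the strand of the gene. Transcripts of 5 of the 10 genes held such a site in a UTR, 4 of them with no mismatch. Of all 21863 genes searched, 0.732% held a UTR site with no mismatch and 4.90% a site with at most 1. Alas2, whose product starts heme synthesis in erythroid cells, is shown as a textbook example of a gene with this hairpin, and its site lies across an exon junction. A match is a description of letters, not proof that a protein binds there.
Tfrc 3′ UTR site 1: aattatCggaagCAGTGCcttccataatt (chr16:32631219-32631247, plus strand)
Tfrc 3′ UTR site 2: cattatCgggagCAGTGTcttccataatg (chr16:32631598-32631626, plus strand)
Tfrc 3′ UTR site 3: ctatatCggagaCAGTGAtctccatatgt (chr16:32631663-32631691, plus strand)
Tfrc 3′ UTR site 4: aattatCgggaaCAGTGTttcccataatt (chr16:32631710-32631738, plus strand)
Slc11a2 3′ UTR, 1 mismatch: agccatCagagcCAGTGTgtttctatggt (chr15:100395153-100395181, minus strand)
Slc40a1 5′ UTR: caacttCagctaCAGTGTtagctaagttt (chr1:45925465-45925493, minus strand)
Fth1 5′ UTR: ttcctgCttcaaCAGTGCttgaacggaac (chr19:9982732-9982760, plus strand)
Ftl1 5′ UTR: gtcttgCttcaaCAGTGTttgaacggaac (chr7:45459779-45459807, minus strand)
Alas2 5′ UTR: ttggttCgtcctCAGTGCagggcaacagg (chrX:150547458-150552149, plus strand, 2 exons)

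Both ferritin chains carry the same stem next to the bulge, and the sites of Tfrc lie within one stretch of its 3′ UTR. The sites were found in 1 of 3 coding transcripts of Tfrc, 1 of 6 of Slc11a2 and 1 of 4 of Slc40a1. They were found in 4 of 5 of Fth1 and 1 of 2 of Ftl1. For these genes gene-level counts do not separate mRNAs with the hairpin from those without it. The Alas2 site was found in each of its 2 coding transcripts.

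Each library held 35913190 to 61032708 counted reads. Expression is given as CPM, counts scaled to a common library size after TMM normalization, which corrects for library composition. The summed CPM of 8 skeletal muscle markers was 119000 to 179300 in NOR, 55640 to 123500 in CAC, 110400 to 139700 in AM and 95260 to 156800 in KD. All 8 were detected in every library. Some libraries stood apart. AM replicate 1 held 1504 CPM of 5 liver markers against at most 18.9 elsewhere, KD replicate 3 had 0 counts on 4 Y-linked genes, and NOR replicate 1, CAC replicates 1 and 4 and KD replicates 2 and 3 held under 5 CPM of 6 lymphocyte markers. The summed CPM of 8 erythroid markers was 1050 to 1360 in NOR, 3630 to 8622 in CAC, 960.9 to 15890 in AM and 2201 to 21360 in KD, and 5 of the 7 tested were upregulated in CAC. Of 8 neutrophil markers 5 were upregulated in CAC and of 4 fibroblast markers 2 were downregulated. The macrophage sum overlapped, at 125.6 to 367.5 CPM in NOR and 268.6 to 432.1 CPM in CAC. In bulk muscle RNA, fewer cells of a type and less RNA per cell cannot be told apart.

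Per length of mRNA, ferritin heavy chain dominated the 10 genes. In FPKM, which divides by gene length, the NOR mean of Fth1 was 2915 ± 415 (SD, n = 4), and 26 of the 21923 genes had a higher mean. Ftl1 followed with 643 ± 201 and Gpx4 with 345 ± 31.7. Tfrc came next with 69.3 ± 10.0, and no range of these 4 genes overlapped with that of a neighbour. Ncoa4 (29.1 ± 9.05) and Hmox1 (25.1 ± 18.3) followed and overlapped with each other and with Slc11a2, at 23.6 to 27.2, whereas Slc40a1, at 15.2 to 21.4, lay below Slc11a2 in every NOR mouse. Acsl4 stood at 5.09 ± 0.292 and Slc7a11 at 0.200 ± 0.122. In CAC the order of the 3 highest and the 2 lowest was kept, while Tfrc, at 19.7 ± 9.87, was one of 5 genes with means between 18.7 and 32.9 whose ranges all overlapped. In AM and KD Tfrc again followed Gpx4, with means of 40.9 ± 12.5 and 34.7 ± 15.1. The ratio of Fth1 to Ftl1 FPKM was between 2.82 and 6.66 over the 16 mice, and the NOR and CAC ranges overlapped.

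**Figure D1:**
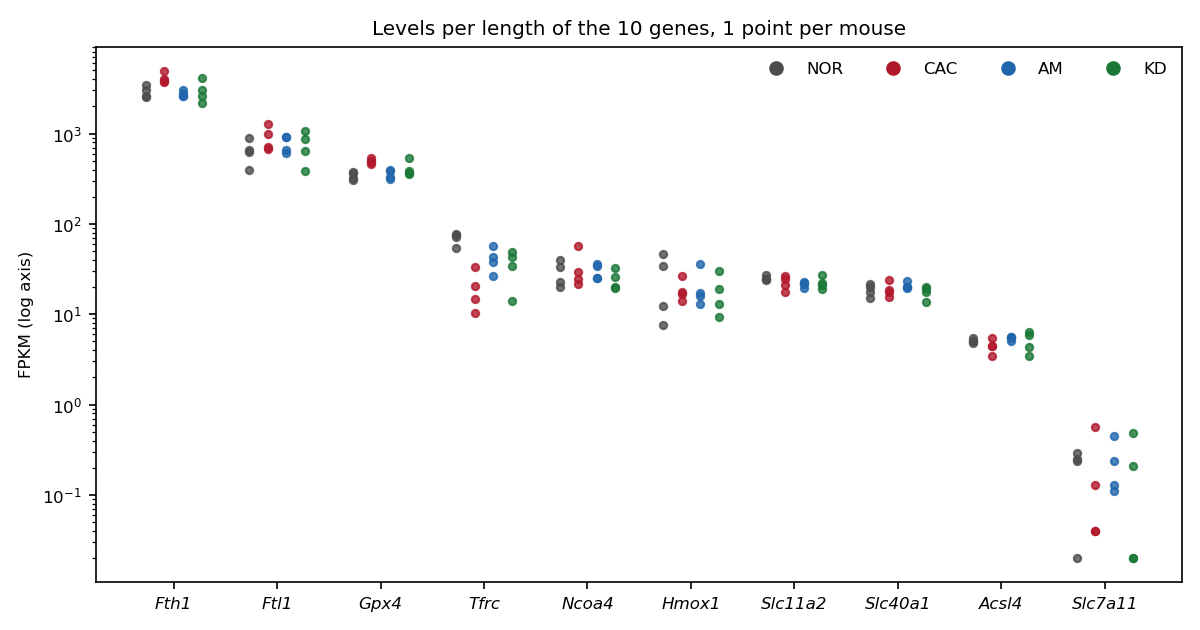
FPKM of the 10 genes on a log axis, ordered by the NOR mean, with 1 point per mouse and 1 color per group. Fth1 lies at the top in every group and Slc7a11 lies under 1 FPKM in all 16 mice, and the CAC points of Tfrc reach down to 10.4.

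The comparison of CAC with NOR asked which of these genes differ in the muscle of tumor-bearing mice. A gene was called when the FDR (edgeR quasi-likelihood F test, Benjamini-Hochberg over all genes tested) did not exceed 0.05 and the level was 1.5-fold higher or more, or 0.667-fold or less. By this rule Tfrc was downregulated in CAC, and none of the 10 was upregulated. Ferritin heavy chain and Gpx4 were each about 1.3-fold higher in CAC and Acsl4 was lower, all without overlap in CPM between the mice of the 2 groups, but none of these reached the fold change limit. The call of 1 in 10 stands beside 9.45% of all 14666 genes tested (4.32% upregulated, 5.13% downregulated). At an unadjusted p below 0.05 there were 4 of the 10, against 29.1% of all genes. Groups did not overlap for 4 of the 10, against 22.8% of all genes. The median size of the log2 fold change was 0.35 over the 10 genes and 0.27 over all genes.

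Tfrc (ENSMUSG00000022797, chromosome 16, 32608920 to 32632794), the receptor for transferrin-bound iron, was at 197, 172, 173 and 123 CPM in NOR replicates 1 to 4. In CAC it was at 35.1, 76.7, 39.7 and 22.6 CPM. Every CAC mouse lay below every NOR mouse, and the highest CAC mouse was C57BL/6 and the lowest BABL/c. The means were 166 ± 31.2 and 43.5 ± 23.2 CPM (SD, n = 4). The log2 fold change was -1.93 (SE 0.35, FDR 0.0117 with edgeR), a level 0.262 times that of NOR, and the exact permutation test (two-sided) gave p = 0.0286, the smallest that 4 against 4 mice can give. Within the C57BL/6 mice it was -1.68 (FDR 0.114) and within the BABL/c mice -2.25 (FDR 0.131), with 2 mice against 2. Without the 5 libraries low in lymphocyte markers it was -1.42 (FDR 0.0745), with 3 NOR mice against 2 CAC mice. Those 3 fits called 1.69%, 0% and 2.63% of all genes, against 9.45% with all 8 mice. Tfrc mRNA is abundant in erythroid precursors, and the erythroid marker sum was higher in every CAC mouse than in any NOR mouse. The summed CPM of 4 fibroblast markers was 2185 to 2909 in NOR, 808.5 to 1270 in CAC and 1758 to 2469 in AM. In KD replicates 1 to 4 it was 2664, 911.7, 678.6 and 2934. The part of either cell type in the Tfrc values was not tested. The 31-base words of Tfrc transcripts occur in no other gene.

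The other 2 iron transporters were not called. Slc11a2 (ENSMUSG00000023030, chromosome 15, 100387898 to 100425072), which carries iron out of endosomes, was at 47.1, 42.7, 40.0 and 37.1 CPM in NOR and at 29.3, 42.3, 32.4 and 31.7 CPM in CAC. CAC replicate 2, also the highest for Tfrc, lay inside the NOR range and the other 3 CAC mice below it, with a log2 fold change of -0.30 (SE 0.13, FDR 0.177). The opposite-strand gene Gm5475 overlaps Slc11a2, and the strandedness of the counts is not given in the sources used here. Slc40a1 (ENSMUSG00000025993, chromosome 1, 45908068 to 45926523), the only known iron exporter, averaged 22.0 ± 3.08 CPM in NOR and 20.9 ± 5.33 in CAC (FDR 0.839). Its difference was smaller than its SE, so no direction is given. The ratio of Tfrc to Slc40a1 FPKM, uptake receptor against exporter, was 2.75 to 4.91 in NOR and 0.618 to 1.81 in CAC, without overlap.

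Ferritin heavy chain Fth1 (ENSMUSG00000024661, chromosome 19, 9980598 to 9985098), the chain that oxidizes iron for storage, was at 2686, 2921, 2238 and 2566 CPM in NOR. In CAC it was at 3393, 3361, 3516 and 3262 CPM, a narrow range that lay wholly above NOR. The log2 fold change was 0.38 (SE 0.14, FDR 0.113; exact permutation p = 0.0286). Light chain Ftl1 (ENSMUSG00000050708, chromosome 7, 45457944 to 45459884), which helps form the iron core, was at 342, 479, 468 and 634 CPM in NOR and at 516, 525, 787 and 677 CPM in CAC. These ranges overlapped through NOR replicate 4, and the log2 fold change was 0.38 (SE 0.22, FDR 0.290). Of the 31-base words in Ftl1 transcripts 57.7% occur in other genes, chiefly ferritin pseudogenes, and Gm10252 on the opposite strand and Gm22133 on the same strand overlap it, so its counts are uncertain. Fth1 shares 3.24% of its words.

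Ncoa4 (ENSMUSG00000056234, chromosome 14, 32159865 to 32179855), the receptor that delivers ferritin to autophagy, ranged from 34.0 to 58.6 CPM in NOR and from 32.6 to 70.8 CPM in CAC. These ranges overlapped (FDR 0.962), 18.8% of its 31-base words occur in other genes, and CAC replicate 3 was the highest of all 16 mice. The heme-degrading enzyme Hmox1 (ENSMUSG00000005413, chromosome 8, 75093621 to 75100589) was at 14.2 and 18.9 CPM in the C57BL/6 NOR mice but at 53.8 and 71.0 in the BABL/c NOR mice. In CAC it was at 29.0, 21.8, 34.5 and 24.9 CPM, so that the C57BL/6 mice lay above their controls and the BABL/c mice below theirs. Over all 8 mice the log2 fold change was -0.52 (SE 0.48, FDR 0.532), with 0.65 (FDR 0.217) in C57BL/6 alone and -1.08 (FDR 0.180) in BABL/c alone.

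Of the ferroptosis genes, Gpx4 (ENSMUSG00000075706, chromosome 10, 80047166 to 80056439), which reduces lipid peroxides, was at 347, 324, 280 and 326 CPM in NOR and at 447, 410, 397 and 417 CPM in CAC. All CAC mice lay above all NOR mice. The log2 fold change was 0.39 (SE 0.10, FDR 0.0423), so that Gpx4 passed the FDR limit with a fold of 1.31, short of 1.5. With 1 mouse left out the FDR ranged from 0.0377 to 0.122, and it stayed within the limit only without NOR replicate 1 or CAC replicate 3. Pseudogenes, chiefly Gpx4-ps2, share 38.9% of its 31-base words. Acsl4 (ENSMUSG00000031278, chromosome X, 142317993 to 142390535), which activates arachidonic acid for membrane lipids, was at 28.8, 25.4, 28.0 and 24.8 CPM in NOR and at 23.3, 17.5, 23.3 and 21.1 CPM in CAC. In CPM all CAC mice lay below all NOR mice, with a log2 fold change of -0.33 (SE 0.12, FDR 0.0962). In FPKM CAC replicate 3, at 5.51, lay above the NOR range of 4.77 to 5.47. Slc7a11 (ENSMUSG00000027737, chromosome 3, 49892526 to 50443614), the cystine transporter, had 6 to 144 counts per library over NOR and CAC, between 0.163 and 2.74 CPM, with several genes overlapping it. It was the lowest of the 10 genes, and the spread between mice was wide (FDR 0.902, SE 0.90 on the log2 scale). Its lowest 5 values of the 16 mice, 0.132 to 0.249 CPM, were those of the 5 libraries low in lymphocyte markers, whose part in this was not tested.

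**Figure D2:**
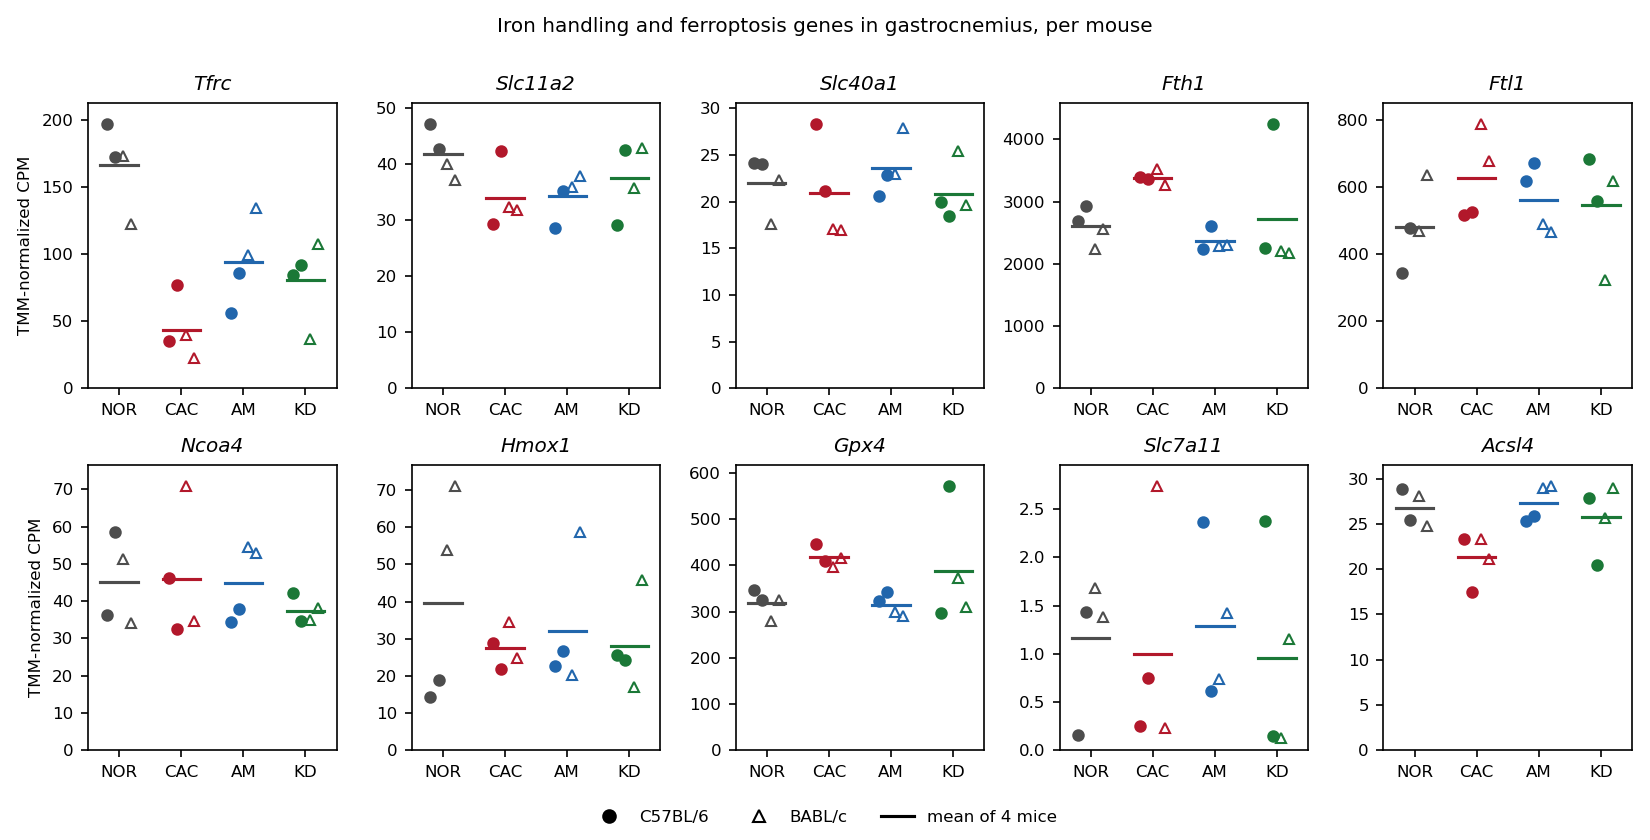
TMM-normalized CPM of the 10 genes in each mouse, with filled circles for C57BL/6, open triangles for BABL/c and a line at the mean of 4 mice. The 4 CAC mice lie below the 4 NOR mice for Tfrc and Acsl4 and above them for Fth1 and Gpx4, and KD replicate 2 lies far above the other KD mice for Fth1.

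The comparison of AM with CAC asked what differed when tumor-bearing mice received amiloride. It and the KD comparison use the same 4 CAC libraries as the comparison above, so the 3 sets of values are not independent. With edgeR 0 of the 10 genes were called, against 3.66% of 14674 genes (1.63% upregulated, 2.03% downregulated). At an unadjusted p below 0.05 there were 4 of 10 genes, against 21.7% of all genes, and groups did not overlap for 3 of 10, against 15.7%. limma-voom also called 0, with 3.77% of all genes, whereas DESeq2 called 1, Tfrc, with 7.49% of all genes.

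Tfrc was at 55.9, 86.3, 99.2 and 135 CPM in AM. AM replicate 1 lay inside the CAC range and the other 3 AM mice above it, and AM replicate 4 reached the NOR range. The mean was 94.0 ± 32.6 CPM (SD, n = 4), with a log2 fold change against CAC of 1.11 (SE 0.39, FDR 0.146 with edgeR, 0.0295 with DESeq2; exact permutation p = 0.0571). It was 1.89 (FDR 0.224) in the BABL/c mice and 0.35 (FDR 0.675) in the C57BL/6 mice. Fth1 was at 2245, 2600, 2291 and 2303 CPM in AM. Every AM mouse lay below every CAC mouse, with a log2 fold change of -0.52 (SE 0.12, FDR 0.0530; exact permutation p = 0.0286), just above the FDR limit. The FDR depended on the fit, at 0.0409 with limma-voom, 7.74e-08 with DESeq2 and up to 0.368 in the BABL/c mice alone, and no fit moved the log2 fold change outside -0.58 to -0.47. Gpx4 was at 323, 342, 300.1 and 290.4 CPM in AM, again all below CAC, at -0.41 on the log2 scale (SE 0.10), and the FDR was 0.0531 with edgeR, 0.0526 with limma-voom and 0.000817 with DESeq2. Acsl4 was at 25.3, 25.9, 28.9 and 29.2 CPM in AM, all above CAC, with 0.36 (SE 0.12, FDR 0.110). In FPKM its AM range of 5.09 to 5.65 overlapped with the CAC range of 3.43 to 5.51.

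For the remaining genes the AM and CAC ranges overlapped. Slc11a2 stood at 28.5 to 37.9 CPM in AM and Slc40a1 at 20.6 to 27.9, and the FDR was 0.958 and 0.634. Ncoa4 stood at 34.4 to 54.5 CPM (FDR 0.956) and Slc7a11 at 0.613 to 2.37 (FDR 0.844). Ftl1 was at 617 and 672 CPM in the C57BL/6 AM mice, above the C57BL/6 CAC mice, and at 489 and 464 CPM in the BABL/c AM mice, below the BABL/c CAC mice, which over all 8 gave a log2 fold change of -0.15 (SE 0.19, FDR 0.699). Hmox1 was at 22.6, 26.6, 20.4 and 58.8 CPM (FDR 0.760), with AM replicate 4 far from the others.

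**Figure D3:**
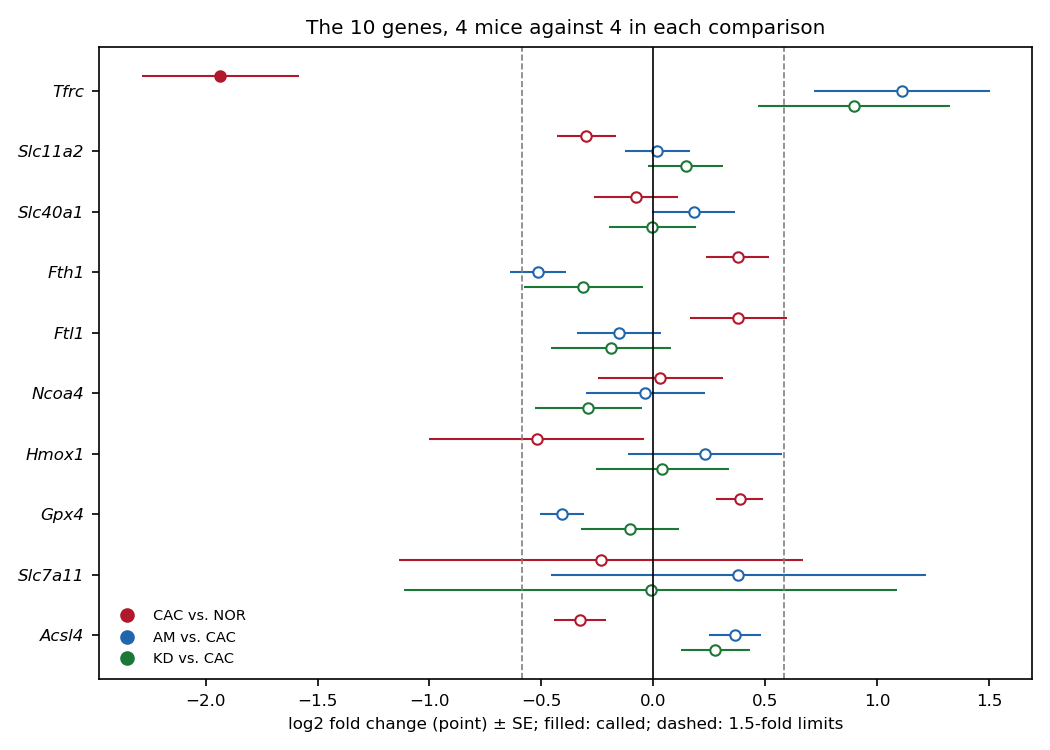
Log2 fold changes (points) with their SE (bars) for the 10 genes in the 3 main comparisons, with filled points where the FDR was at most 0.05 and the 1.5-fold limits (dashed lines) were passed. The only filled point is Tfrc in CAC vs. NOR, at -1.93, and its values against the shared CAC mice are 1.11 in AM and 0.89 in KD.

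The comparison of KD with CAC asked the same for tumors with less Rab27. With edgeR 0 of the 10 genes were called, against 0.00685% of 14593 genes (1 gene, downregulated, and 0% upregulated), and 0 of 10 had an unadjusted p below 0.05, against 11.1% of all genes. DESeq2, which called 2.15% of all genes, and limma-voom, which called 0%, also called 0. No gene of the 10 separated the groups without overlap, against 7.00% of all genes. Tfrc was at 84.8, 92.1, 37.0 and 108 CPM in KD. KD replicate 3 lay inside the CAC range and the other 3 above it, with a log2 fold change of 0.89 (SE 0.43, FDR 0.489). Without KD replicate 3, the library with 0 counts on Y-linked genes, it was 1.14 (FDR 0.453).

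Fth1 showed how far 1 KD mouse could stand from the rest. It was at 2262, 4246, 2199 and 2172 CPM, so that in CPM KD replicate 2 exceeded every other mouse of the study and the other 3 lay below all CAC mice. In FPKM KD replicate 2, at 4150, lay inside the CAC range of 3767 to 4885. The log2 fold change was -0.31 (SE 0.27, FDR 0.734), and -0.61 (FDR 0.158) without KD replicate 2. Gpx4 was at 298, 572, 374 and 311 CPM, with the same mouse highest, a log2 fold change of -0.11 (SE 0.22, FDR 0.929) over all 8 mice and -0.35 (FDR 0.247) without it. KD replicate 2 also held the highest erythroid marker sum of the 16 mice, 21360 CPM, and in AM the mouse with the highest erythroid sum, replicate 2 with 15890 CPM, was highest for Fth1 and Gpx4. The part of erythroid RNA in these values was not tested. In CAC, where Fth1 was within 3262 to 3516 CPM, the erythroid sum ranged from 3630 to 8622 CPM, and its highest value was in replicate 1, the CAC mouse highest for Gpx4 and not for Fth1.

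Acsl4 was at 27.9, 20.5, 25.7 and 28.9 CPM in KD, with replicate 2 inside the CAC range and a log2 fold change of 0.28 (SE 0.15, FDR 0.546). Ncoa4 lay between 34.6 and 42.1 CPM, and its log2 fold change of -0.29 (SE 0.24, FDR 0.719) rested on CAC replicate 3, without which it was 0.00. The differences of Slc40a1, Slc11a2, Ftl1, Hmox1 and Slc7a11 were smaller than their SE, with an FDR between 0.827 and 0.999.

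Set against NOR directly, the same groups gave 0 called genes among the 10 and among all genes (0% of 14738 in AM, 0% of 14748 in KD, edgeR), with 1354 and 522 genes at an unadjusted p below 0.05. The log2 fold change of Tfrc was -0.81 (SE 0.25, FDR 0.518) in AM and -1.03 (SE 0.31, FDR 0.999) in KD, where every mouse lay below every NOR mouse (exact permutation p = 0.0286). At an unadjusted p below 0.05 there were 2 of the 10 genes in AM, Tfrc and Slc11a2 (-0.27, SE 0.11, FDR 0.531), and 1 in KD, Tfrc. The log2 differences of the 10 genes from NOR lay between -0.81 and 0.23 in AM and between -1.03 and 0.29 in KD, with Gpx4 at -0.01 (SE 0.10) in AM and 0.29 (SE 0.21) in KD, and Acsl4 at 0.04 (SE 0.09) in AM and -0.04 (SE 0.13) in KD. AM and KD did not differ by any called gene (0% of 14745, with 163 at an unadjusted p below 0.05), and the log2 differences of the 10 genes lay between -0.30 and 0.42.

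Whether a difference varied between the C57BL/6 mice with LLC and the BABL/c mice with CT26 was tested by the interaction term. No gene passed the FDR limit in any of the 3 main comparisons (0% each), where in turn 717, 1821 and 825 genes had an unadjusted p below 0.05. Among the 10 genes the interaction term was -1.69 (SE 0.36, FDR 0.558) for Hmox1 in CAC vs. NOR, and -0.94 (SE 0.20, FDR 0.269) for Ftl1 in AM vs. CAC. For Tfrc in CAC vs. NOR the difference of the mean log2 CPM was -1.83 in C57BL/6 and -2.28 in BABL/c (interaction FDR 0.998), and in AM vs. CAC it was 0.42 and 1.94 (FDR 0.408).

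The genes whose profile over the 16 libraries was nearest to that of Tfrc were Mum1l1, Dact2 and Aurka. The root mean square difference of their log2 CPM, each centred on its own mean, was 0.44, 0.46 and 0.47, among 13155 genes, while Tfrc itself had an SD of 0.92. This is a ranking without a test.

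The wider pathway was read from 71 further textbook genes of iron uptake, export, IRE-binding proteins, mitochondrial iron, heme, glutathione, lipid peroxidation and NRF2 control. In CAC vs. NOR 67 of them were tested, of which 6 were upregulated and 4 downregulated, which is a share of 10 in 67 beside the 9.45% of all genes given above. Groups did not overlap for 21 of the 67, beside 22.8%. The median log2 fold change was 0.06 against 0.01 over all genes. Aco1 and Ireb2, which encode the iron regulatory proteins, had log2 fold changes of -0.23 (SE 0.19, FDR 0.473) and -0.14 (SE 0.09, FDR 0.347).

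Among 7 uptake and reduction genes tested, Slc39a14 and Lcn2 rose and Steap3 fell. Slc39a14 encodes ZIP14, which imports iron not bound to transferrin. It was at 17.3, 16.2, 13.6 and 19.0 CPM in NOR and at 53.4, 34.4, 52.0 and 108 CPM in CAC, where every mouse lay above every NOR mouse (log2 fold change 1.91, SE 0.33, FDR 0.00957). Steap3, the endosomal reductase that prepares transferrin iron for DMT1, was at 59.8, 44.7, 46.4 and 37.2 CPM in NOR and at 19.9, 23.8, 18.1 and 26.2 CPM in CAC (-1.10, SE 0.17, FDR 0.00718). Lcn2, a siderophore-binding protein made by neutrophils and in inflammation, was under 5 CPM in NOR and between 14.3 and 138 CPM in CAC (4.65, SE 0.90, FDR 0.0141). The summed CPM of 8 neutrophil markers was 6.23 to 35.3 in NOR and 111 to 269 in CAC, and its part in the Lcn2 value was not tested.

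Of the other groups, Hfe, whose product takes part in iron sensing, fell by 0.88 on the log2 scale (FDR 0.0379), and Slc25a28, the mitochondrial iron importer mitoferrin 2, rose by 0.74 (FDR 0.00709). In heme synthesis the housekeeping enzyme gene Alas1 fell by 0.71 (FDR 0.0283), and the erythroid Alas2, which carries the IRE shown above, rose from 12.5 ± 0.762 to 75.5 ± 30.3 CPM (2.59, FDR 0.00214) together with the erythroid markers, among which it is itself counted. Of the 6 further genes of the cystine and glutathione arm, beside Slc7a11, 2 were called. The other 4, Gclc, Gclm, Gss and Chac1, had log2 fold changes between 0.07 and 0.39 with an FDR of at least 0.253. Slc3a2, the heavy chain that pairs with SLC7A11 and with other amino acid transporters, was at 48.6, 54.8, 58.8 and 66.5 CPM in NOR and at 120, 118, 132 and 178 CPM in CAC (1.26, SE 0.16, FDR 0.00377). Cbs, an enzyme on the route from methionine to cysteine, was called too, from 0.498 ± 0.118 to 1.67 ± 1.04 CPM (FDR 0.0432). The lipoxygenase gene Alox15 fell from 0.689 ± 0.263 CPM to at most 0.178 CPM (FDR 0.0442), with 0 to 8 reads per CAC library. The calls of Hfe, Alas1, Cbs and Alox15 were each lost without NOR replicate 1, 2 or 4 or CAC replicate 3 as well as without NOR replicate 3 for Hfe, Cbs and Alox15, without CAC replicate 1 for Hfe, Alas1 and Alox15, and without CAC replicate 4 for Cbs and Alox15. The FDR then reached 0.0869 for Hfe, 0.0679 for Alas1, 0.117 for Cbs and 0.109 for Alox15. That of Lcn2 was lost without NOR replicate 3 (FDR 0.0513), and its log2 fold change was 3.54 without CAC replicate 4 and 5.33 without NOR replicate 4. That of Alox15, a fitted value that is no bound because CAC libraries were at or near 0 reads, was -3.69 over all mice and -5.55 without CAC replicate 2. Nfe2l2, Keap1 and Bach1, which encode NRF2, its inhibitor and a repressor of its targets, passed the FDR limit with log2 fold changes of 0.57, 0.43 and 0.37 but stayed under the fold change limit, while Nqo1, an NRF2 target, had 0.09 (FDR 0.859). All 5 listed genes of NRF2 control had positive log2 fold changes, with a median of 0.37 against 0.01 over all genes. They were not tested as a set.

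In AM vs. CAC 3 of 68 genes were called, a share near the 3.66% of all genes. Steap3 rose to 32.3, 38.4, 42.5 and 40.3 CPM (0.81, SE 0.14, FDR 0.0192). Slc39a14 fell to 21.5, 14.4, 22.8 and 19.4 CPM (-1.66, SE 0.33, FDR 0.0281), and Slc3a2 fell to 86.4, 92.5, 85.1 and 60.7 CPM (-0.75, SE 0.17, FDR 0.0445). For all 3 the AM mice did not overlap with the CAC mice. Groups did not overlap for 11 of the 68, against 15.7% of all genes. With 1 mouse left out, where 1.42% to 3% of all genes were called, between 0 and 2 of the 68 were called, with 0 without CAC replicate 1 or AM replicate 2, 3 or 4 and 1 without CAC replicate 3 or AM replicate 1. With 1 mouse left out the FDR was 0.0254 to 0.0799 for Slc39a14 and 0.0219 to 0.0647 for Steap3. For Slc3a2 it was 0.0715 to 0.104, so that its call was lost whichever mouse was left out, and under 18 of 20 alternatives in all. In KD vs. CAC edgeR called 0 of 66 genes, with 8 (12.1%) at an unadjusted p below 0.05 against 11.1% of all genes. limma-voom called 0, and DESeq2 called 2, beside 2.15% of all genes. Groups did not overlap for 6 of the 66, against 7.00% of all genes. The smallest FDR belonged to Slc39a14 (16.5, 25.2, 17.2 and 16.96 CPM in KD; -1.71, FDR 0.231), Steap3 (39.7, 31.5, 57.3 and 78.7 CPM; 1.23, FDR 0.255) and Bach1 (-0.45, FDR 0.267). The first 2 were those called by DESeq2, and for both the KD and CAC mice did not overlap in CPM.

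**Figure D4:**
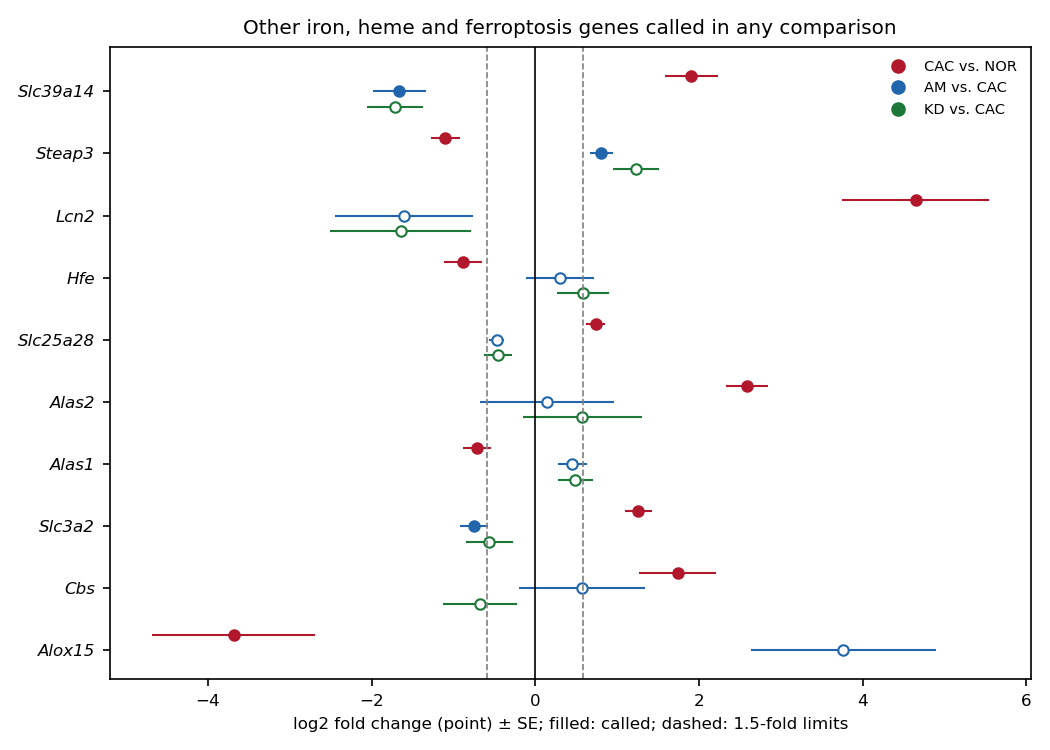
Log2 fold changes (points) with their SE (bars) of the 10 further iron, heme and ferroptosis genes called in any of the 3 comparisons, with filled points for called values and dashed 1.5-fold limits. Slc39a14 lies at 1.91 in CAC vs. NOR and, against CAC, at -1.66 in AM and -1.71 in KD, and Alox15 was not tested in KD vs. CAC because of its low counts.

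The promoters were searched for the antioxidant response element, the site bound by NRF2, as TGACNNNGC on both strands of RefSeq windows (GRCm38.p6) from 250 bases before to 50 after the start. Windows were given for 7 of the 10 genes, and 1 of them, Ncoa4, held the motif, against 14.0% of 27025 genes. No window was given for Slc40a1, Slc11a2 or Hmox1, so their promoters were not searched.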

How the data were processed

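Gastrocnemius RNA of 16 mice was sequenced on an Illumina instrument after oligo(dT) enrichment. For each gene the authors deposited a read count, a whole number that was not normalized, and an FPKM value, which is scaled by gene length and library size. The submitters' processing notes name fastp, Bowtie2, HISAT2 and StringTie 1.3.1, and the builds mm9 and GRCm38, without roles, and whether counting used strand is not given in the sources used here. NOISeq, the authors' test, was not used here.

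The test was that of edgeR 4.0.16 under R 4.3.3 (TMM scaling, filterByExpr with min.count 10 and min.total.count 15, glmQLFit, glmQLFTest) on the 8 libraries of each comparison, with no covariate. Depth was 35913190 to 61032708 counts per library, and counting error was not separated from the spread between mice. DESeq2 1.42.0, limma-voom (limma 3.58.1), other scalings, no low-count filter, strain or replicate terms, all libraries in 1 fit, single strains and leaving out each mouse were alternatives. Positions come from GENCODE M21, which matched 21905 of 21923 identifiers. Sequences were searched with Python 3.11.15.

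The members and the gene lists were chosen with earlier results of these data known. Named were all 10 members, the called genes of the further list (the 3 of smallest FDR where fewer than 3 were called), and the 3 genes nearest to each called member. Aco1, Ireb2, Nfe2l2, Keap1 and Nqo1 were named after their values were seen. Fits without the libraries low in lymphocyte markers were chosen after seeing the data. Each library is taken as 1 mouse, as the labels number them.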

Additional observations from a re-analysis of the deposited data

Results flagged for a closer look

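In 3 of the 40 sets of 4 mice examined (10 genes in 4 groups), 1 mouse lay far from the other 3, by a gap to its neighbour that took most of the range of its group (Dixon's test). Chance alone gives about 1 in 20 such sets. Fth1 was at 4246 CPM in KD replicate 2, against 2172 to 2262 in the other KD mice, and at 2600 CPM in AM replicate 2, against 2245 to 2303. In FPKM, where the test was not run, these mice were at 4150 against 2204 to 3033 and at 3002 against 2580 to 2846. Hmox1 was at 58.8 CPM in AM replicate 4, against 20.4 to 26.6.

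For 4 of 30 pairs of gene and comparison, both mice of one strain lay above both of their controls and both mice of the other strain lay below theirs. Over all genes tested this held for 2.93% (1 of the 10 genes) when CAC was set against NOR. Against CAC it held for 8.38% in AM mice (1 of the 10) and for 5.25% in KD mice (2 of the 10). The difference between the strains on the log2 scale (BABL/c minus C57BL/6) was -1.69 for Hmox1 in CAC vs. NOR (interaction FDR 0.558), -0.94 for Ftl1 in AM vs. CAC (FDR 0.269), -0.90 for Ftl1 in KD vs. CAC (FDR 0.866) and 0.75 for Slc40a1 in KD vs. CAC (FDR 0.866). None of the 4 passed the FDR limit over all genes with edgeR, and the cause was not tested.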

How the results depend on the processing

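Tfrc in CAC vs. NOR was called under 17 of 20 alternatives, with log2 fold changes between -2.36 and -1.42 and an FDR between 3.11e-07 and 0.131. The number of called members was 0 in either strain alone and without the libraries low in lymphocyte markers, all fits on fewer mice, and 2 with no fold change limit (Gpx4 added). With 1 mouse left out it stayed at 1 in CAC vs. NOR and at 0 in the other comparisons. DESeq2 called 1 member in AM vs. CAC, where it called 7.49% of all genes. Members with a strain interaction stayed at 0. Among member differences larger than their SE, 294 of 300 values under the alternatives kept their direction and stayed called or not called. This counts both limits together, and the FDR alone crossed 0.05 more often, between 0.00131 and 0.307 for Gpx4 in CAC vs. NOR and between 7.74e-08 and 0.368 for Fth1 in AM vs. CAC. The 2 that reversed were Hmox1 in CAC vs. NOR, 0.65 in the C57BL/6 mice, and Ncoa4 in KD vs. CAC, whose values with 1 mouse left out ranged from -0.42 to 0.00. Of the further genes in KD vs. CAC, Lcn2 was 0.11 without the libraries low in lymphocyte markers, Hfe -0.05 and Cbs 0.31 in C57BL/6 alone.

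The further genes called in CAC vs. NOR, 10, were 6 with all 16 libraries in 1 fit, 3 in C57BL/6 alone, 0 in BABL/c alone, 5 without the libraries low in lymphocyte markers, and 6 to 12 with 1 mouse left out (6 without NOR replicate 1 or 2 or CAC replicate 3). These fits called 7.91%, 1.69%, 0%, 2.63% and 4.91% to 8.57% of all genes. Those in AM vs. CAC, 3, were 1 in the 16-library fit, 0 in either strain alone and without those libraries, 6 with no fold change limit, and 0 to 2 with 1 mouse left out, where 1.52%, 0%, 0%, 0.119%, 4.98% and 1.42% to 3% of all genes were called. Those in KD vs. CAC, 0, were 2 with DESeq2 and 2 in the 16-library fit, which called 2.15% and 0.953% of all genes. The cause was not tested. With total counts as the only scaling the median of all genes moved from 0.01 to 0.14 in CAC vs. NOR and from 0.00 to -0.11 in KD vs. CAC (log2).

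Mice with the same replicate number shared the labelled strain and tumor line, but no label makes them pairs. Their deviations correlated between -0.19 and 0.60 in CAC vs. NOR, -0.45 and 0.045 in AM vs. CAC, and -0.64 and -0.25 in KD vs. CAC, so the numbers were not taken to pair them. With a replicate block Tfrc in CAC vs. NOR was -2.06 (FDR 0.0152), called members were 1, 0 and 0, and further genes were 8, 0 and 0 in the 3 comparisons, beside 7.77%, 0% and 0% of all genes.

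With 2 mice per strain and group, within-strain fits rest on few mice. The values of Slc7a11 rest on few reads, 6 to 144 per library over NOR and CAC, and spread widely between mice.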
